A study of Mus musculus with 2 samples.

Results

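The Th-positive early neurons are cells with at least 1 unique molecular identifier (UMI, one counted mRNA molecule) of *Th* and of *Isl1* and no UMI of *Sox10*. They numbered 84 of 3563 kept cells at embryonic day (E) 12.5, or 2.36% (1.88 to 2.91), and 3 of 840 at E11.5. *Th* encodes tyrosine hydroxylase, the rate-limiting enzyme of catecholamine synthesis, *Isl1* a LIM homeodomain factor of early sensory and sympathetic neurons, and *Sox10* a factor of neural crest cells and glia. The cells were thus chosen by the measured UMIs of those 3 genes, whose levels are described and not tested. At both stages the cells came from mouse embryos whose genotype the labels give as Egr2,R26mT: Cre is driven by *Egr2* (*Krox20*), a marker of boundary cap cells at the nerve entry and exit points of the spinal cord, and Tomato marks cells that expressed it and their descendants. Meninges were dissected with dorsal root ganglia and nerve roots, Tomato-positive cells were sorted, and 1 pooled litter gave 1 library at each stage. The label of the samples names boundary cap cells, but in the 84 E12.5 neurons *Egr2* and *Prss56*, which mark them, had 1 UMI each.

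Tyrosine hydroxylase is best known in sympathetic neurons, where it works together with *Ddc*, *Dbh*, the vesicular transporter *Slc18a2* and the noradrenaline transporter *Slc6a2*. It is also made by sensory neurons of the dorsal root ganglia, including low-threshold mechanoreceptors of the skin. Embryonic sensory neurons leave the cell cycle under proneural factors of the Neurog and Neurod families, switch on *Isl1*, *Pou4f1* and *Tlx3*, and then divide into classes such as nociceptors, mechanoreceptors and proprioceptors, which differ in the neurotrophin receptors they carry, *Ntrk2* (TrkB) and *Ntrk3* (TrkC, of proprioceptors) among them.

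The E12.5 library held 3762 barcodes and 23460243 UMIs, and the E11.5 library 1431 barcodes and 10287595 UMIs. The libraries shared 9 barcodes, and 1 of the 84 neurons carried one of them. With 1 library for each stage no test between conditions was possible, and intervals in parentheses are 95% exact intervals that cover counting error only. For each of the 84 neurons of E12.5, the 5 *Isl1*-positive, *Th*-negative, *Sox10*-negative cells nearest in total UMIs were taken without replacement, which gave 420 comparison cells out of 1271. The neurons had a median of 10139 UMIs and the comparison cells 8790, and the deepest of each 24180 and 20766. In the same way, 420 glial cells (*Sox10*-positive, *Isl1*-negative, median 8953 UMIs) were matched as a measure of free RNA. Levels are in CPM, a gene's UMIs in a group of cells for every 1000000 UMIs of that group.

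*Th* had 169 UMIs in the 84 neurons, and the values that chose them were low. The gene lies at chr7:142443466-142484865, minus strand (GRCm39). There was 1 UMI in 44 neurons, 2 in 14, 3 in 17, 4 in 5, and between 5 and 9 in the other 4. Among *Isl1*-positive, *Sox10*-negative cells 6.2% (4.97 to 7.62) had *Th*, against 6 of 1224 glial cells, 0.49% (0.18 to 1.06), with median depths of 6407 UMIs in the *Th*-negative cells of that pool and 6114 in the glial cells. After thinning to 2000 UMIs a cell, *Th* was found in 28 of 82 neurons, and all of these have it at full depth. Just outside the rule were 8 cells with *Th*, *Isl1* and *Sox10* (at most 2 *Sox10* UMIs) and 8 with *Th* and no *Isl1*. The former held the neurofilament gene *Nefl* at 1368 CPM and the glial gene *Fabp7* at 866 CPM, the latter 129 and 5169 CPM. Just inside, the 44 neurons with 1 *Th* UMI held *Nefl* at 2429 and *Fabp7* at 204 CPM, and 1 neuron had a single *Isl1* UMI.

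The promoter of *Th* is shown because *Th* defines the cells, and that of *Runx3* because it is a marker of theirs with matches to a runt factor motif. Each is the 250 bases before the RefSeq transcript start (GRCm38.p6), 5′ to 3′ on the gene's own strand. Searched on both strands were TGACGTCA (cyclic AMP response element), TGANTCA (AP-1), TGTGGT (runt) and CANNTG (E-box), and capitals mark matches to all but the last. Matches of different motifs may overlap. The *Th* window at chr7:142899996-142900245 (minus strand) and the upstream *Runx3* window at chr4:135120395-135120644 (plus strand) read
*Th*: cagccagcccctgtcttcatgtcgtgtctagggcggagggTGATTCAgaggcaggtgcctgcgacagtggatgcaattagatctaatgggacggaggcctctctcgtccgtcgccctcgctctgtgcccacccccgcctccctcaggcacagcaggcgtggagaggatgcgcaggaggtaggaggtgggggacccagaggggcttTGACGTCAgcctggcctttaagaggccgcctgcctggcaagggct
*Runx3*: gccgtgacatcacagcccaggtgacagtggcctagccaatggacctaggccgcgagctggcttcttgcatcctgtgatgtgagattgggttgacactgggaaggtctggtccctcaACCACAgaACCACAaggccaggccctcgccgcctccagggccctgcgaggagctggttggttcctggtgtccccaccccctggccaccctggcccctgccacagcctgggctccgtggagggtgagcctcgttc
The *Th* window held 1 cyclic AMP response element starting 45 bases and 1 AP-1 match starting 210 bases before the transcript start. The *Runx3* window held 2 runt matches, 134 and 126 bases before it, and the window at the second *Runx3* start none. The windows of *Gal*, *Prph* and *Scn9a* had no match to these 3 motifs. Over all 32851 windows the shares with a match were 1.55% for the response element, 6.75% for AP-1, 14% for runt and 66.2% for the E-box. Among the 240 matched genes that were at least 2-fold higher in the neurons (described further on) these shares were 3.33%, 5.83%, 12.5% and 69.2%, and among all 4422 matched genes tested 3.64%, 4.48%, 11.8% and 58.9%.

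Most genes that turn the product of *Th* into dopamine, noradrenaline and adrenaline, or carry these amines, were at 0. *Ddc* (aromatic L-amino acid decarboxylase), *Dbh* (dopamine β-hydroxylase), *Pnmt*, *Slc18a1*, *Slc6a2* and *Slc6a3* had 0 UMIs in the 84 neurons, where 0 UMIs allow up to 3.5 CPM. *Slc18a2* had 2 UMIs in as many neurons and 6 in the comparison cells. *Gch1*, which starts the synthesis of the tetrahydrobiopterin cofactor, had 3 UMIs, and the later cofactor enzymes *Pts*, *Spr* and *Qdpr* were within 2-fold of the comparison cells, at 1.24, 0.848 and 1.69 times their level. The degrading enzyme *Maoa* was at 17.5 against 19.4 CPM in 14 neurons. Besides *Th*, which the rule used, 3 of the 15 listed genes reached a mean of 25 CPM, and none of these was past 2-fold.

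Transcription factors of the sympathetic lineage were not detected at this depth. *Phox2a*, *Hand1*, *Hand2*, *Gata2* and *Gata3* had 0 UMIs in the 84 neurons. Of the 10 autonomic genes listed, 7 had no UMI there. The nicotinic receptor subunit *Chrna3*, which sensory neurons also express, was the only one tested and was past 2-fold, in 35 neurons (41.7%) at 65.4 against 31.9 CPM, 2.05-fold (1.46 to 2.84), or 1.94-fold without the neuron with the most UMIs. *Chrnb4* had 4 UMIs. *Npy*, a peptide of sympathetic neurons, had 7 UMIs in the neurons and 150 in the comparison cells, but 2309 in the glial cells, 73.1% of which held it. *Cartpt*, a neuropeptide gene, had 0 UMIs. Motor neuron markers *Mnx1*, *Lhx3*, *Chat* and *Slc18a3* and the spinal interneuron markers *Pax2*, *Lhx1*, *Gad1*, *Gad2* and *Slc32a1* also had none. Of the other motor neuron genes listed, *Slc5a7* had 2 UMIs, and *Foxp1*, which sensory neurons also express, was in 45 neurons at 100.4 against 112 CPM.

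The neurons carried several transcription factors of dorsal root ganglion sensory neurons. Of 11 listed 6 were tested, and only *Isl2* was past 2-fold. *Pou4f1* was found in 74 of 84 neurons at 458 against 633 CPM, and *Tlx3* in 81 at 517 against 477 CPM. In glial cells *Pou4f1* was found in 12.4% and *Tlx3* in 12.1%. *Prdm12*, a nociceptor lineage factor, *Tlx2* and *Six4* were within 2-fold as well, at 0.843, 0.713 and 0.647 times the comparison level. *Isl2*, the paralogue of *Isl1*, stood apart at 262 against 70.9 CPM, 3.69-fold (3.07 to 4.42) higher, and was found in 68 neurons (81%) and 143 comparison cells (34%). *Hmx1* fell under the filter on low values, with 28 UMIs in 9 neurons and 7 in 3 comparison cells. *Eya1*, *Pou4f2* and *Pou4f3* were under it too, with 1, 2 and 8 UMIs in the neurons and 25, 3 and 10 in the comparison cells. *Slc17a6*, the glutamate transporter VGLUT2, was in 57 neurons, at 137 against 101 CPM.

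The other markers came with the choice of these cells from earlier results of the same data, so that their higher level describes the cells and is no finding. None of them was found in more than 42 of the neurons. *Gal*, the neuropeptide galanin (chr19:3459912-3464881, minus strand), had 217 UMIs in 40 neurons and 96 in 33 of 420 comparison cells, 9.67-fold (7.57 to 12.4) higher. *Scn9a*, the sodium channel Nav1.7 of nociceptors (chr2:66310424-66465306, minus strand), had 137 UMIs in 42 neurons and 70 in 31 comparison cells, 8.37-fold (6.23 to 11.3). Per neuron, *Gal* ran from 0 to 24 UMIs (median 0) and *Scn9a* from 0 to 12 (median 0.50), and the comparison cells reached 51 and 19, so the groups overlapped. *Runx3*, a runt factor (chr4:134847952-134905301, plus strand), had 25 UMIs in 17 neurons and 12 in 2 comparison cells, 8.91-fold (4.32 to 19.5), and was under the filter on low values. *Prph*, the intermediate filament peripherin (chr15:98952872-98956862, plus strand), had 206 UMIs in 20 neurons and 73 in 14 comparison cells, 12.1-fold (9.2 to 16). Of those 206 UMIs, 123 lay in 2 neurons, and without that pair the ratio to the unchanged comparison cells was 5.12. Glial cells had these 4 genes in at most 1.43% of cells. At 2000 UMIs a cell *Gal* was found in 20 of 82 neurons, 7 of 410 comparison cells and 1 of 410 glial cells. At that depth *Scn9a* was in 15 of 82 neurons, 2 of 410 comparison cells and 0 of 410 glial cells, *Prph* in 9 of 82 neurons, 6 of 410 comparison cells and 1 of 410 glial cells, and *Runx3* in 3 of 82 neurons, 2 of 410 comparison cells and 0 of 410 glial cells.

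**Figure D1:**
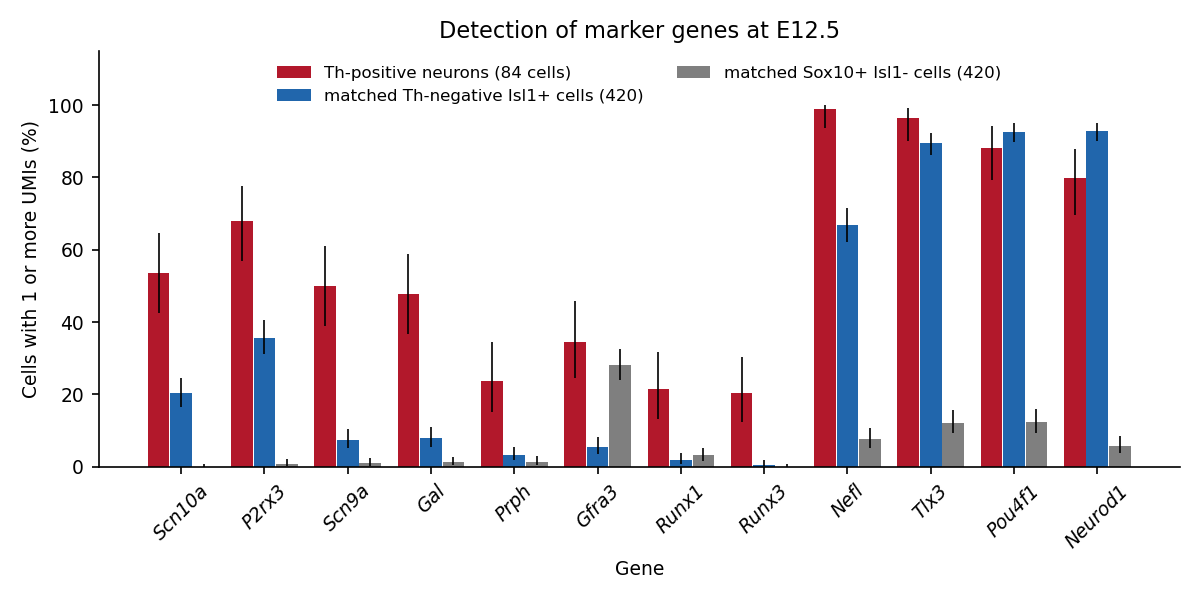
Share of cells with at least 1 UMI of each gene (%, without thinning) in the 84 Th-positive neurons, the 420 matched Th-negative Isl1-positive cells and the 420 matched glial cells of E12.5, with exact binomial 95% intervals for counting error. Nefl was found in 83 of the 84 Th-positive neurons, Gal in 40 and Scn9a in 42 of them, and Pou4f1 in 88.1% against 92.6% of the comparison cells.

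Across all 5464 genes tested (mean of the groups of at least 25 CPM, without the 3 genes of the rule and mitochondrial genes), 303 were at least 2-fold higher in the neurons, 5.55%, and 221 at least 2-fold lower, 4.04%. The median log2 ratio was 0.05. A gene can pass the filter through the group in which it is high, so counts of listed genes past 2-fold describe only the genes that passed. The 12 largest ratios, predicted genes aside, were those of *Kctd8*, *Prph*, *Dscam*, *Lin7a*, *Gfra3*, *Synm*, *Ubash3b*, *Gal*, *Plppr1*, *Ralyl*, *Pou2f2* and *Nrxn3*. *Kctd8*, an auxiliary subunit of GABA-B receptors, led with 51 UMIs in 21 neurons and 13 in 12 comparison cells, 16.8-fold (9.0 to 33.6). *Dscam*, a cell adhesion molecule, was at 67.7 against 5.73 CPM, *Synm*, an intermediate filament protein, at 60.7 against 6.0 CPM, and *Plppr1*, a membrane protein of growing neurites, at 102 against 10.9 CPM. *Nrxn3*, a presynaptic adhesion molecule, was in 62 neurons (73.8%) and 60 comparison cells (14.3%), at 433 against 50.2 CPM. Leaving out the neuron with the most UMIs of each gene kept all 12 between 7.97-fold (*Prph*) and 14.4-fold (*Kctd8*). Of the 303 genes 251 stayed past 2-fold when this was done. Of the listed genes *Chrna3*, *Ntrk3*, *Chga*, *Scn3a*, *Map2* and *Ncam2* did not, at 1.94, 1.31, 1.91, 1.91, 1.96 and 1.62 times.

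**Figure D2:**
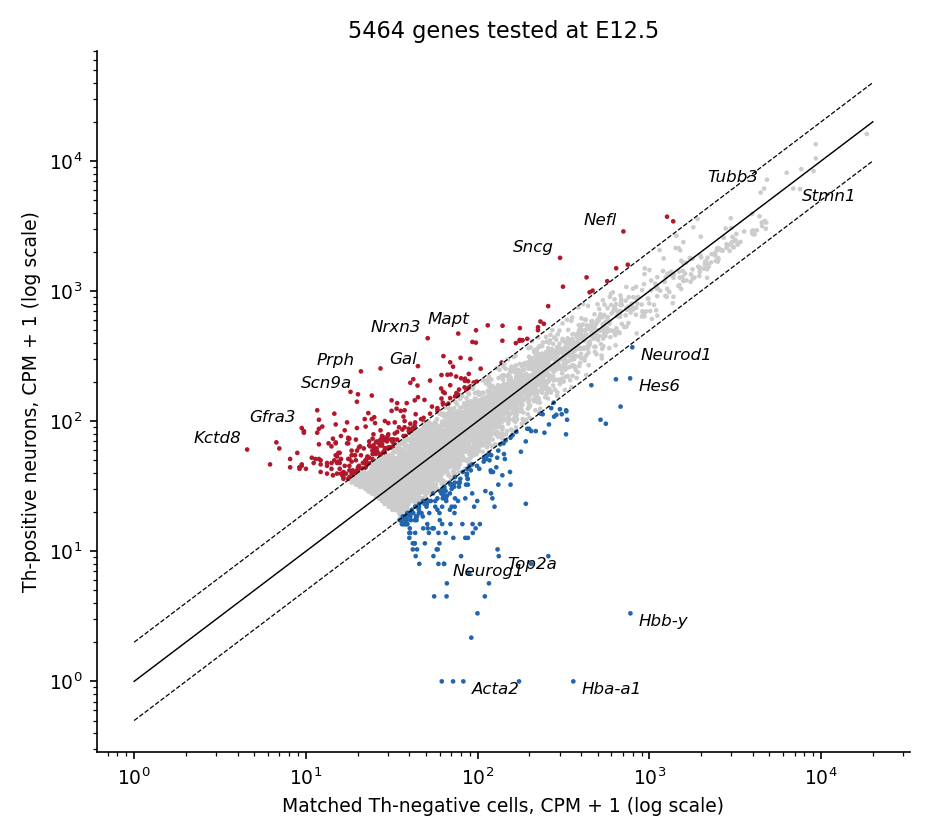
CPM + 1 of each of the 5464 genes tested in the 84 Th-positive neurons (vertical) against the 420 matched Th-negative cells (horizontal) of E12.5, both on log scales, with the line of equality and dashed lines at 2-fold. Red marks the 303 genes at least 2-fold higher and blue the 221 at least 2-fold lower, the latter led by globin and cell cycle genes.

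Among receptors for trophic factors, *Ngfr* and *Gfra3* were higher. *Ntrk2* had 1 UMI in the neurons. *Ntrk3* was found in 12 neurons at 70.1 against 27.3 CPM, but 48 of its 60 UMIs lay in the pair of neurons that also held most of the *Prph*. Without that pair *Ntrk3* was lower than in the comparison cells, at 14.7 CPM, a ratio of 0.541. No cell high in *Ntrk3* was removed from the comparison cells, so the removal lowers this ratio by construction. The comparison cells also held *Ntrk3* unevenly, with up to 21 UMIs in 1 cell. *Ngfr*, the p75 co-receptor, was 5.18-fold (3.82 to 7.04) higher and *Gfra3*, the artemin receptor, 10.4-fold (6.73 to 16.3) higher, in 42 and 29 neurons. Glial cells also held both. *Gfra3* was in 28.1% of them at 81.1 CPM, beside 87.6 CPM in the neurons and 8.46 CPM in the comparison cells. *Ngfr* was in 22.9% of them at 43.3 CPM, beside 114 CPM in the neurons and 22.1 CPM in the comparison cells. Of the 12 listed receptors 4 were tested and 3 were past 2-fold, *Ntrk3* only with its pair of high neurons. *Gfra1* was not, at 0.641 (0.441 to 0.908) of the comparison level.

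Of the factors that later divide sensory neurons, the runt factors were found in few of the neurons and *Klf7*, *Zeb2*, *Cbfb*, *Casz1* and *Shox2* in most, between 54 and 80 of them. *Runx1*, of nonpeptidergic nociceptors and C-fibre mechanoreceptors, had 39 UMIs in 18 neurons and 15 in 8 comparison cells, 11.1-fold (6.0 to 21.7). *Runx1* and *Runx3*, the latter best known for proprioceptors, met in 7 neurons. *Cux2* was at 50.2 against 10.9 CPM and *Etv5*, an ETS factor, at 66.6 against 16.6 CPM, the pair past 2-fold among the 7 of 18 listed factors that were tested. *Klf7*, *Casz1* and *Cbfb*, the partner of the runt factors, were within 2-fold, between 1.23 and 1.31 times the comparison level, as were *Zeb2* and *Shox2* (0.753 and 0.687). Of other genes of adult C-fibre low-threshold mechanoreceptors, *Slc17a8* (VGLUT3) had 2 UMIs, *Tafa4* 2 and the neurturin receptor *Gfra2* 3. *Zfp521* had 26 UMIs in 17 neurons.

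Besides the marker *Scn9a*, 7 ion channels were tested, of which 3 were past 2-fold and none was below the comparison level. *Scn10a* (Nav1.8) was in 45 neurons (53.6%), 85 comparison cells (20.2%) and no glial cell, at 96.9 against 31.9 CPM, 3.04-fold (2.26 to 4.06). *P2rx3*, the ATP-gated channel of nociceptors, was in 57 neurons (67.9%) and 150 comparison cells (35.7%), 2.09-fold (1.69 to 2.57). At 2000 UMIs a cell *P2rx3* was in 16 of 82 neurons, 19.5% (11.6 to 29.7), and 56 of 410 comparison cells, 13.7% (10.5 to 17.4), intervals that overlap, and *Scn10a* in 12 and 18 of them. *Scn3a*, an embryonic sodium channel, was at 80.6 against 40.1 CPM. These were past 2-fold, *Scn3a* only with its neuron of the most UMIs (1.91 without it), and *Cacna2d1*, *Scn8a*, *Cacna1a* and *Cacna1b* ranged from 1.36 to 1.85 times. The other 22 of 30 channels had a mean of both groups under 25 CPM. The acid-sensing channel *Asic2* just missed it, with 35 UMIs in 26 neurons and 21 in 17 comparison cells, 7.13-fold (4.04 to 12.9). Of the others *Trpv1* had 5 UMIs, *Trpa1* and *Trpm8* 0, *Scn11a* 1, and *Piezo2*, the channel of touch, 16 in 9 neurons.

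Neuropeptides other than galanin, granule proteins aside, were each found in fewer neurons. *Adcyap1* (PACAP) had 32 UMIs in 23 neurons, 2.79-fold (1.73 to 4.45), and the granule proteins *Chga* and *Chgb* were 2.0-fold and 3.14-fold higher. Of 20 listed genes 4 were tested, the marker *Gal* among them, *Adcyap1* and *Chgb* only through their level in the neurons, while *Npy*, lower in the neurons, just missed the filter. *Sst* (somatostatin) had 21 UMIs in 10 neurons against 7 in 5 comparison cells. *Calca* (CGRP) had 2 UMIs, *Calcb* 5, and *Tac1* (substance P) and *Vip* 0.

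Most of the filament genes tested, and some of the axon genes, were past 2-fold higher. The light and medium neurofilament subunits *Nefl* and *Nefm* were at 2872 against 705 CPM and 3729 against 1267 CPM, *Ina* at 413 against 174 CPM, and the heavy subunit *Nefh* had 7 UMIs in 5 neurons and 0 in the comparison cells. Besides the marker *Prph*, 5 filament genes were tested and 4 were past 2-fold, *Nes* with them and *Vim* not, at 1.51 times. *Sncg* (γ-synuclein) was 5.98-fold (5.53 to 6.46) and *Mapt* (tau) 5.15-fold (4.46 to 5.94) higher, in 79 and 68 neurons. With *Gap43*, *Stmn2*, *Stmn3*, *Stmn4*, *Map2*, *Uchl1*, *Rtn1* and *Dpysl3*, between 2.03 and 3.45 times, they made 10 of 21 growth cone and cytoskeleton genes. Other pan-neuronal genes were within 2-fold, among them *Stmn1* (0.892), *Elavl3* (0.896), *Tubb3* (1.32) and *Map1b* (1.88). Of 11 synaptic genes 6 were past 2-fold: *Nrxn3*, *Syt4* (4.67-fold), *Syt1* (3.01-fold), *Vamp2* (2.53-fold), *Syn1* (2.35-fold) and *Snap25* (2.2-fold). *Cplx2* was the one tested synaptic gene below the comparison level, at 0.634 (0.512 to 0.779) of it. The median log2 ratio was 0.91 for growth cone and 1.14 for synaptic genes, beside 0.05 for all genes tested.

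Genes of neurogenesis were lower. Of 11 tested 8 were at least 2-fold lower and all were below the comparison level, with a median log2 ratio of -1.47. *Neurog1*, a proneural factor of sensory neurons, had 6 UMIs in the neurons and 230 in 126 comparison cells, a ratio of 0.112 (0.0405 to 0.247). *Neurod4* was at 0.145, *Btg2* at 0.169, *Hes6* at 0.275, *Insm1* at 0.325, *Gadd45g* at 0.36 and *Mfng* at 0.485 of it. *Neurod1* was at 369 against 795 CPM and still found in 67 neurons (79.8%). *Nhlh1* and *Nhlh2* were within 2-fold.

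The 12 lowest ratios were those of *Ccna2*, *Cenpf*, *Ube2c*, *Ccnb1*, *Pclaf* and *Cdc20*, all of the cell cycle, of the globins *Hba-a1*, *Hba-x*, *Hbb-bt*, *Hbb-y* and *Hbb-bh1*, and of *Acta2*, a smooth muscle actin. *Ccna2* had 0 UMIs in the neurons and 223 in 85 comparison cells, at least 17.4-fold lower against a floor of 3 UMIs over the group. *Acta2* had 0 and 299 UMIs, the latter in 10 comparison cells. Of 6 cycle genes counted as a set, 5 were at least 2-fold lower, and 2 or more of the 6 were found in 11 neurons (13.1%), 104 comparison cells (24.8%) and 81.9% of glial cells. Among all 1271 comparison cells, before matching on depth, it was 14.2% (12.4 to 16.3). The globin values rest on 1 cell: of 5668 globin UMIs in the comparison cells 5644 were in a single one, and the neurons had 3. Without cycling cells (2 or more of the 6) and that cell in the comparison pool, 246 genes were at least 2-fold higher and 119 lower.

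Markers of other cell types were low in the neurons. The 12 glial genes other than *Sox10* summed to 199.7 CPM in the neurons, 419 in comparison cells and 5124 in glial cells, and the most abundant, *Fabp7*, had 105 UMIs in 33 neurons, 56 of them in 1. *Sox8* and *Sox9* had 0 UMIs. Erythroid genes summed to 4 UMIs in the neurons, mesenchymal and pericyte genes to 11, and myeloid and endothelial genes to 9. No neuron had a Scrublet doublet score of 0.2 or more, against 15 comparison cells. Of the stress and early response genes listed, the 4 tested of 10 were within 2-fold, *Fos* at 1.19 and *Jun* at 1.17 times the comparison level.

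The neurons were gathered in one region of the expression space. Leiden clustering of the 1355 *Isl1*-positive, *Sox10*-negative cells of E12.5, without the genes of the rule, gave 11 clusters, numbered here by their share of *Th*-positive cells. Cluster 1 held 58 of the 84 neurons among its 119 cells, 48.7% (39.5 to 58.1). Cluster 2 held 13 of 140 (9.29%), cluster 3 9 of 223 (4.04%), clusters 4, 5 and 6 together 4, and the other 5 clusters none. Among the 15 nearest cells of a *Th*-positive neuron 47.7% were themselves *Th*-positive, beside 6.2% of all cells in this space, and 12 of the neurons had no such neighbour. From cluster 3 through 2 to 1, *Neurod1* went from 1097 through 837 to 322 CPM and *Nefl* from 517 through 1444 to 2985, values that the clustering itself used. *Th* detection within cluster 1 moved with depth. It was 20% in the 40 shallowest of its cells (8 neurons, median 2960 UMIs), 52.5% in the next 40 and 74.4% in the deepest (29 of 39, median 12993 UMIs).

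**Figure D3:**
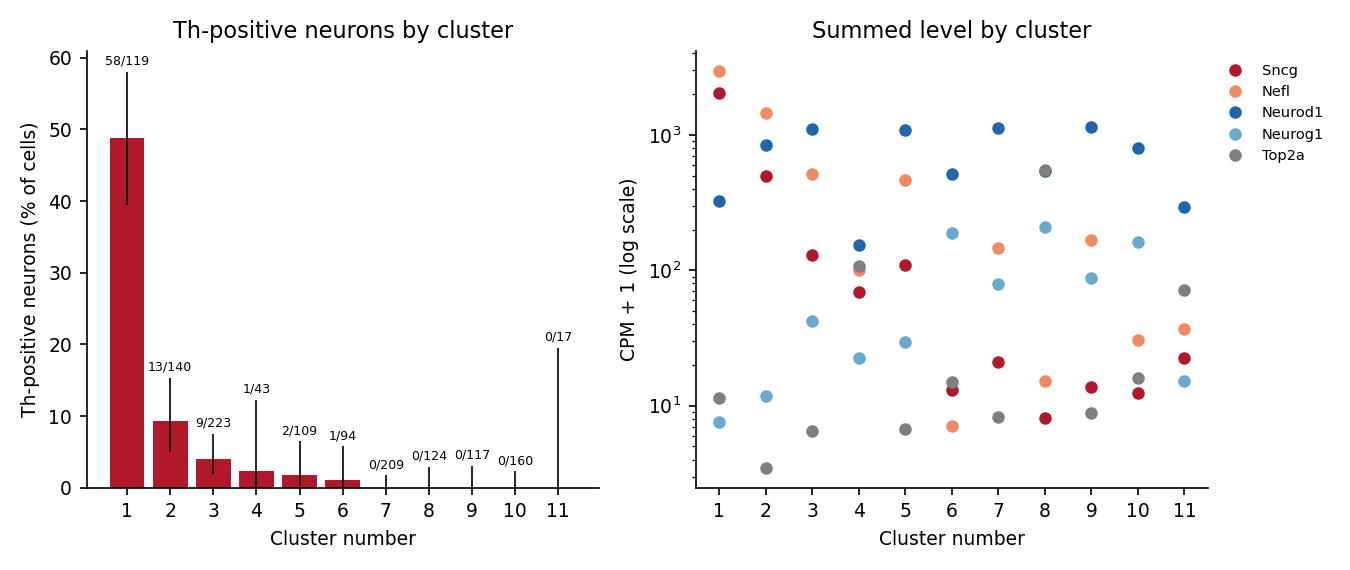
Left, share of Th-positive neurons (%) in each of the 11 clusters of Isl1-positive, Sox10-negative cells at E12.5, with exact binomial 95% intervals and the numbers of Th-positive and all cells. Right, CPM + 1 of 5 genes (log scale) summed over each cluster. Cluster 1 had the highest share, 48.7%, with the highest Sncg and Nefl.

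Within cluster 1 the 58 neurons were set against its 61 *Th*-negative cells, which were shallower (median 6708 against 11148 UMIs). Of the 303 genes at least 2-fold higher against the matched cells, 303 were tested here, 12 were past 2-fold and 225 above 1, and their median ratio went from 2.67 to 1.17. Across 5552 genes tested within the cluster, 64 were at least 2-fold higher (1.15%) and 107 at least 2-fold lower (1.93%). How many of all 5552 lay above or below 1, and their median ratio, were not computed. Counts on either side of 1 and the median of 1.17 therefore have no background here. *Gal* was at 314 against 186 CPM, 1.68-fold (1.29 to 2.22), from 204 UMIs in 33 neurons and 77 in 12 other cells. *Prph* had the same sums by coincidence, 204 and 77 UMIs, in 19 and 14 cells. Without the pair of *Ntrk3*-high neurons, both in this cluster, *Prph* was at 133 against 186 CPM, 0.716-fold (0.517 to 0.991). *Gal* was then at 1.77 and *Scn9a* at 1.24 times. No cell was removed from the *Th*-negative side, which held 42 *Ntrk3* UMIs in 12 cells. Taking the pair from the neurons alone lowers the *Prph* ratio by construction. With all 58 neurons *Scn9a* was at 208 against 152 CPM, 1.36-fold (1.0 to 1.87). *Runx3* was at 38.4 against 38.7 CPM, 0.993-fold (0.51 to 1.99), from 25 UMIs in 17 neurons and 16 in 5 *Th*-negative cells. *Scn10a* was at 112 against 99.2 CPM, 1.13-fold (0.761 to 1.7). Of the 221 genes at least 2-fold lower against the matched cells, 95 were tested here, 14 were past 2-fold and 79 below 1. *Neurod1* was lower here too, at 229 against 469 CPM, 0.488-fold (0.392 to 0.607). *Hes6*, *Insm1*, *Gadd45g* and *Mfng* came within 2-fold, at 0.798, 0.710, 0.635 and 0.673 times. Some genes given above as higher lay at or below the level of the *Th*-negative cells here: *Ntrk3*, *Scn3a*, *Adcyap1*, *Ina*, *Map2*, *Snap25*, *Syt1* and *Syn1*. The largest ratios were those of *Isyna1*, an enzyme of inositol synthesis at 70.7 against 12.1 CPM, 5.85-fold (2.33 to 18.9), and then *Cdh4*, *Zfp322a*, *Gle1*, *Gatd3a*, *Dus1l*, *Igfbp5* and *Pou2f2*, each with 27 to 61 UMIs in the neurons.

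**Figure D4:**
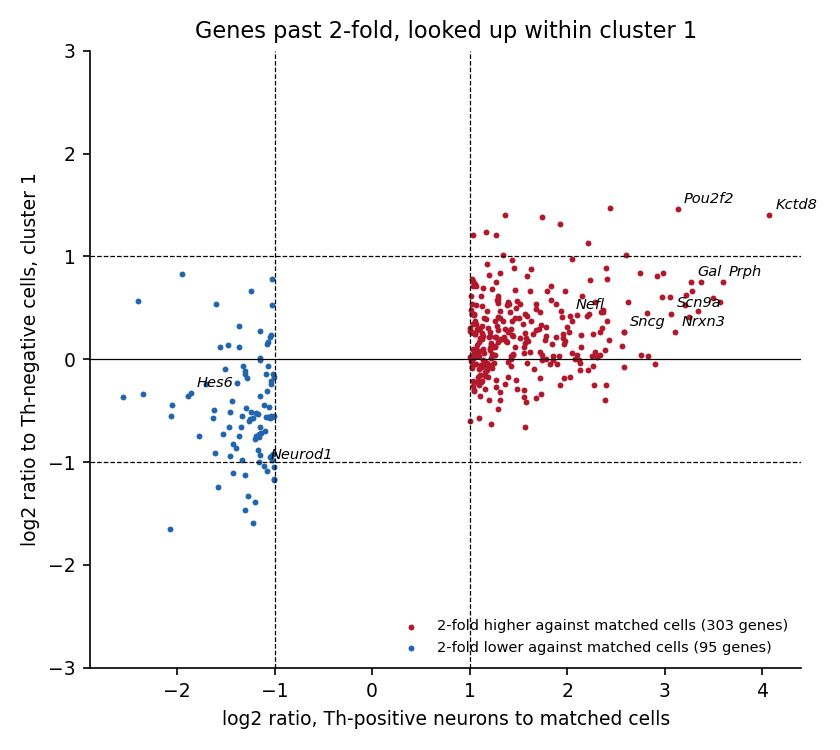
Log2 ratio of the genes past 2-fold against matched cells (horizontal) and of the same genes between the Th-positive and Th-negative cells of cluster 1 (vertical), for those that also reached the minimum level within the cluster and had UMIs in the neurons. Most of the 303 higher genes lay between the dashed 2-fold lines on the vertical axis, 12 above them.

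Against one another, the neurons inside and outside cluster 1 differed in *Gal*, *Scn9a*, *Prph* and the runt factors. The sensory factors *Pou4f1* and *Tlx3* were within 2-fold between them. Of 5375 genes tested, 444 were at least 2-fold higher inside (8.26%) and 278 at least 2-fold lower (5.17%). The 58 neurons inside had a median of 11148 UMIs and the 26 outside 8310, so a gene is more easily missed outside. *Gal* was at 314 CPM in the neurons of cluster 1 and 63.1 CPM in those of the other clusters. *Scn9a* had 135 UMIs in 40 of the former 58 and 2 in 2 of the latter 26, and *Prph* 204 and 2 UMIs. All 25 UMIs of *Runx3* and 38 of 39 of *Runx1* were in cluster 1. *Synpr*, a synaptic vesicle protein (54 UMIs in 33 neurons), *Meis2*, a TALE homeodomain factor (65 in 29), *Rgs7*, *Gnat3*, *Fam89a*, *Dscam*, *Nrg3* and *Frmpd4* were seen in no neuron outside it. *Nrg3* and *Frmpd4* rested on few cells, 7 and 10. *Neurod1* went the other way, at 229 CPM in the neurons of cluster 1 and 810.2 CPM in those of the other clusters, and *Pou4f1* was at 432 and 539 CPM. These genes entered the clustering, so the differences are described only.

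The neurons were also grouped by their number of *Th* UMIs, a value that the rule used. Depth rose with that number, so the levels are described only. Cluster 1 held 22 of 44 neurons with 1 *Th* UMI, 12 of 14 with 2 and 24 of 26 with 3 or more, with median depths of 9000, 10696 and 11452 UMIs. In the same order *Neurod1* was at 458, 369.6 and 262 CPM. *Gfra3* was at 45, 80.1 and 142 CPM, and *Gal* at 249, 179 and 297, with no order. *Prph* was at 15.9, 24.6 and 619 CPM. Without a pair of neurons the last value was 267 CPM for *Prph* and 106 CPM for *Gfra3*.

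That pair of neurons, chosen after its values were seen, stood apart by having 10 or more UMIs of *Ntrk3*. They had 18 and 30 UMIs of *Ntrk3*, 50 and 73 of *Prph*, and 3 and 6 of *Th*, in 24180 and 18680 UMIs in all. Each had 8 UMIs of *Gfra3*, 10 of *Scn9a*, and 0 of *Runx1* and *Scn10a*. *Runx3* had 3 and 1. *Gal* and *Scn9a* met in 27 neurons.

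**Figure D5:**
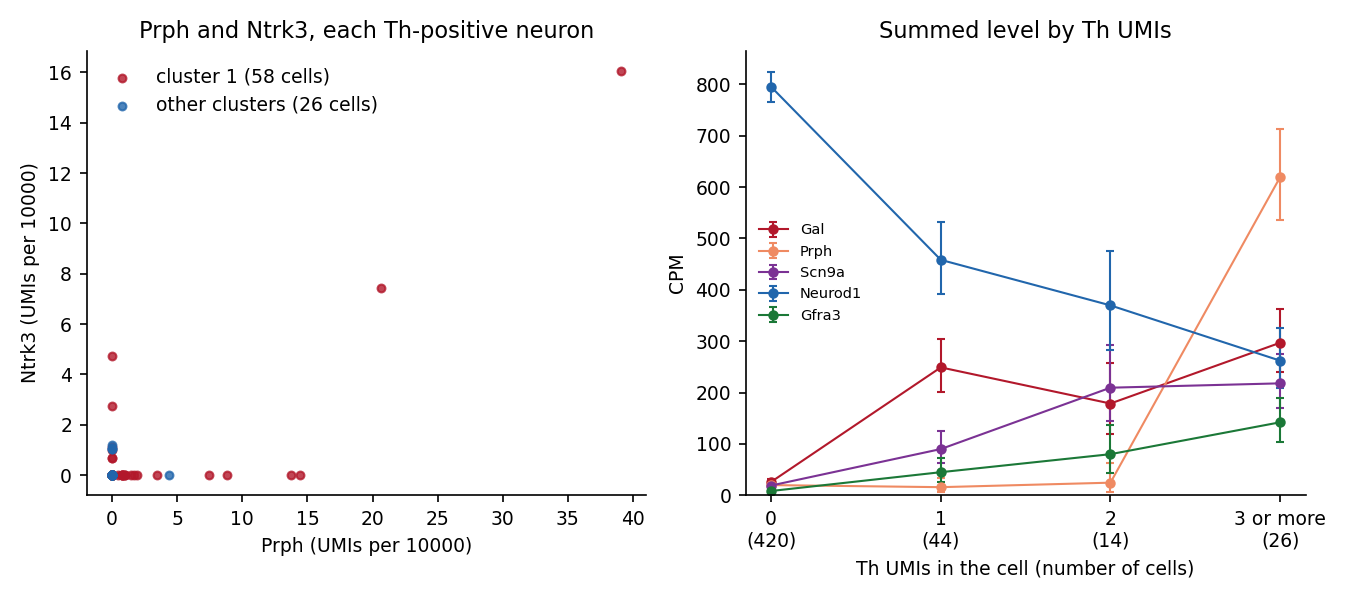
Left, Ntrk3 (vertical) against Prph (horizontal) (UMIs per 10000) in each of the 84 Th-positive neurons of E12.5, coloured by cluster. Right, CPM of 5 genes summed over cells with 0 (comparison cells), 1, 2 and 3 or more Th UMIs, with exact Poisson 95% intervals for counting error. A pair of neurons lay high in both genes, and Prph was at 619 CPM where the Th count was 3 or more, 267 without that pair.

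At E11.5 the rule found 3 neurons, 1.47% (0.304 to 4.24) of 204 *Isl1*-positive, *Sox10*-negative cells, and 1 of 414 glial cells had *Th*. The stages have 1 library each, so that stage and library cannot be told apart. Each of the 3 neurons had 1 *Th* UMI, among 15457, 11507 and 15734 UMIs. They held *Pou4f1* at 7, 9 and 8 UMIs, *Tlx3* at 13, 7 and 5, and *Neurod1* at 22, 15 and 19. *Ntrk3* had 0, 7 and 3. *Gal*, *Prph*, *Runx1*, *Runx3* and *Gfra3* had 0 UMIs in all 3. In the *Th*-negative pool, *Gal* was at 4.77 CPM in the earlier library and 17.5 CPM in the later, *Scn9a* at 13 and 11.9 CPM, and *Ntrk3* at 63.4 and 21.8 CPM.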

How the data were processed

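The authors dissociated tissue of *Egr2-Cre; R26-Tomato* embryos, sorted Tomato-positive cells and made 10x 3′ libraries. The deposited values are raw UMI counts per gene and barcode, made by the authors with Cell Ranger (7.0 in the submitters' processing notes, 7.0.1 in the file header) on mm39. Whether intronic reads were counted, which bears on long genes, is not given in the sources used here. Barcodes with over 10% mitochondrial UMIs, or under 2000 (E11.5) or 1000 (E12.5) UMIs, were removed. Doublets were not removed but scored with Scrublet (scanpy 1.11.5). The members and the gene lists were chosen with earlier results of these data known. Genes named are the markers, the 12 highest and 12 lowest ratios without predicted genes, the members of each list past 2-fold or of highest level, and the 8 largest ratios within cluster comparisons. A ratio of summed CPM of at least 2, or at most 0.5, counted as past 2-fold. Clusters used 2000 variable genes, 20 principal components, 15 neighbours and resolution 1 (igraph 0.11.9). Intervals are exact (scipy 1.17.1), and a count of 0 is read against 3 counts. The ratios were run on simulated Poisson counts of group sums. These hold no variation between cells, so they do not test the intervals against it. Molecules of 1 cell are not independent, so counting intervals are too narrow for cells. Gene positions are from GENCODE M39 (GRCm39). *Drgx* and some other genes are not reported here. Alternatives are in the closing section.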

Additional observations from a re-analysis of the deposited data

How the results depend on the processing

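There were 14 alternatives that changed a single choice and 5 more chosen after seeing the data, of which that within cluster 1 changed the neurons, the comparison cells and the matching together. Requiring 2 *Th* UMIs left 40 neurons of 84, and the other rules 82 to 92. The genes at least 2-fold higher numbered 303 and those lower 221. They were 603 and 505 with a minimum of 10 CPM, where more genes were tested, and 73 and 37 with a minimum of 100. Thinned to 2000 UMIs they were 559 and 419, of which 218 and 154 were shared with the full depth. Without cycling or globin-rich cells the lower genes were 119. Within cluster 1 the higher and lower genes were 64 and 107, with 12 and 14 shared. The other alternatives stayed within 1.5 times. Of 84 named genes past 2-fold, none changed sign under any of the first 14 that gave a value. Some of the 14 could not change a sign. The minima of 10 and 100 CPM leave every ratio as it is. Centring the ratios on their median shifts every log2 ratio by 0.05. Of all 159 named ratios, those that left their counting interval numbered 66 with thinning, 51 with no condition on *Sox10*, 39 with unmatched cells, and 26 or fewer under each of the rest of the first 14. Within cluster 1 86 left it and 20 more, all genes counted as past 2-fold against the matched cells, changed sign. That count of 20 leaves out *Runx3*, under the filter on low values, and *Tlx3*, within 2-fold of the matched cells. Both also fell below 1 within cluster 1, at 0.993 and 0.919. Without cycling or globin-rich cells 44 left it and 3 more changed sign. Under the later alternatives, log2 ratios turned within cluster 1 for *Pclaf* 1.67, *Ntrk3* -0.24, *Adcyap1* -0.29, *Scn3a* -0.60, *Ina* -0.037, *Map2* -0.084, *Snap25* -0.010, *Syt1* -0.035, *Syn1* -0.082, *Neurog1* 0.67, *Neurod4* 1.67, *Unc5c* -0.046, *L1cam* -0.040, *Cntn2* -0.23, *Cntn4* -0.033, *Ncam2* -0.17, *Cdk1* 0.35, *Birc5* 1.81, *Ednrb* 0.083, *Hoxa7* 0.024. Without cycling or globin-rich comparison cells they turned for *Ccnb1* 0.12, *Top2a* 0.80, *Birc5* 1.30, which removing cells by these genes from the comparison alone fixes. Without the pair of *Ntrk3*-high neurons, chosen by that gene, the value was *Ntrk3* -0.89, and within cluster 1 that of *Prph* was -0.48, the other 3 markers staying within their intervals. Cells high in *Ntrk3* were left out among the neurons alone, which by construction lowers both values. Within cluster 1 *Neurog1* rests on 5 and 2 UMIs, and it, *Pclaf*, *Neurod4*, *Cdk1*, *Birc5*, *Ednrb* and *Hoxa7* were under the filter on low values there. In 20 further cases, mostly globin and cycle genes, counts at the floor of 3 gave no value. The cause of these shifts was not tested beyond the construction of each alternative. No paired analysis was possible because there is 1 library per stage.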

Other observations

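Guidance and adhesion genes were mixed. Of 15 guidance genes tested, *Plxna4*, a semaphorin co-receptor, was 4.96-fold (3.95 to 6.23) higher in the Th-positive neurons and the netrin receptor *Unc5c* 3.72-fold (3.05 to 4.53), while *Nrp2* and *Ephb2* were at 0.42 and 0.373 of the comparison level. The other 11, *Robo1*, *Robo2* and *Epha5* among them, were within 2-fold. Of 13 adhesion genes 6 were past 2-fold higher: *Dscam*, *Cntn4* (4.38-fold), *Cntnap2* (3.89-fold), *Ncam2* (2.62-fold, or 1.62 without 1 neuron that held 15 of its 38 UMIs), *L1cam* (2.27-fold) and *Cntn2* (2.1-fold). *Dscaml1* was lower, at 0.334 (0.229 to 0.475). Within cluster 1 *Unc5c*, *Cntn2*, *Cntn4*, *Ncam2* and *L1cam* were below the level of the *Th*-negative cells. The calcium-binding *S100a10*, a partner of annexin A2, was at 541 against 139 CPM in 66 neurons and *S100a11* at 24.5 against 64.4 CPM. The AMPA receptor subunit *Gria2* was 3.1-fold higher.

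Hox genes, which mark position along the body axis, were mostly at or under the filter on low values. Of 39 Hox genes 11 were tested, and 9 of these were within 2-fold. *Hoxa7* was at 0.325 (0.159 to 0.598) and *Hoxb2* at 0.471 (0.295 to 0.72) of the comparison level. *Hoxa7* was found in 4 neurons. *Hoxd1*, under the filter on low values, had 26 UMIs in 13 neurons against 18 in 13 comparison cells, 6.18-fold (3.26 to 12).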
